A study of Mus musculus with 8 samples.

Results

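Lipid-associated macrophages are recruited or resident macrophages that have taken up lipid and share a small set of marker genes. Of the 32285 genes in the deposited matrices, 9 such markers were followed here by their gene symbols: Trem2, Mmp12, Gpnmb, Atp6v0d2, Capg, Itgax, Cd63, Cd9 and Lpl. All 9 were found, each under 1 gene ID, and all 9 passed the filter on low counts in every test below. They were chosen by symbol and by no threshold on the values shown here, but with earlier results of these data known. Their counts beside those of all genes are therefore a description and no independent support. The nuclei come from livers of 8 male DIAMOND mice, a cross of 129A1/SvIm and C57BL/6J that develops fatty liver disease and liver tumours on Western diet. WD tumour mice (n = 3) are described as kept on Western diet for 48 weeks and had hepatocellular carcinoma (HCC). RD tumour mice (n = 2) had Western diet for 36 weeks, then standard chow, and also had HCC, and RD no tumour mice (n = 3) had the same reversal and no tumour. The descriptions start the diets at 2 months of age but also give 48 weeks as the age at the end, so time on diet and age disagree, and neither was used in a test. Each mouse gave 1 single-nucleus library from snap-frozen liver, and the labels do not say whether the piece held tumour tissue. WD tumour and RD no tumour therefore differ in both diet at the end and tumour, which cannot be told apart.

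As background, Trem2 is a surface receptor for lipids and lipoproteins that signals through the adaptor Tyrobp. In fatty liver, adipose tissue and atheroma, macrophages that meet lipid and dying cells switch on Trem2 together with genes of lysosomal degradation and lipid handling. In the liver they are found beside resident Kupffer cells, which carry Clec4f, and are thought to arise in large part from monocytes, which carry Ccr2. Among the other members, Gpnmb is a membrane glycoprotein of lysosomes, Atp6v0d2 a subunit of the proton pump that acidifies them, and Cd63 and Cd9 are tetraspanins of lysosomes, vesicles and the cell surface. Mmp12 is a secreted elastase of macrophages, Capg caps actin filaments, Itgax is the integrin CD11c of dendritic cells and activated macrophages, and Lpl is the lipase that frees fatty acids from lipoproteins.

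The members lie on 7 chromosomes and are protein-coding in the GENCODE M21 annotation of mouse build GRCm38. Gpnmb (chr6:49036546-49070929), Capg (chr6:72544391-72562983) and Cd9 (chr6:125460266-125494791) share chromosome 6 but lie far apart. Trem2 is at chr17:48346401-48354147, Mmp12 at chr9:7344381-7369499, Itgax at chr7:128129547-128150657, Atp6v0d2 at chr4:19876841-19922605, Cd63 at chr10:128900989-128912822 and Lpl at chr8:68880491-68907448. Upstream sequence was held for 7 of the 9 members in a RefSeq table (build GRCm38.p6), and not for Atp6v0d2 and Lpl. Trem2, Itgax and Mmp12 are shown because they are the 3 members that differed between Clec4f-positive and Ccr2-positive nuclei (below). Each run is the plus strand, 5′ to 3′, and ends where the GENCODE gene begins. Capitals mark matches, on either strand, to the AP-1 site TGANTCA, the PU.1 core GAGGAA or the nuclear receptor hexamer AGGTCA.
Trem2, chr17:48346151-48346400: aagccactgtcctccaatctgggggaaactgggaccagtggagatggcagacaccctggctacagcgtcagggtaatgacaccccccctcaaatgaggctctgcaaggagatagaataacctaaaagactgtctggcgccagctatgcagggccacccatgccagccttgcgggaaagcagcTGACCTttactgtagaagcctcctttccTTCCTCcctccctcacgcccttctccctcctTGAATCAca
Itgax, chr7:128129300-128129546: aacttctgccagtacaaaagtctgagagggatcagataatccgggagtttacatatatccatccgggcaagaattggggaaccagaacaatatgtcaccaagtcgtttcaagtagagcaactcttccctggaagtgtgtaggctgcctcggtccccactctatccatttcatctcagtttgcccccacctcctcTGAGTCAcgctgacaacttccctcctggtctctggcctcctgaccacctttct
Mmp12, chr9:7344147-7344380: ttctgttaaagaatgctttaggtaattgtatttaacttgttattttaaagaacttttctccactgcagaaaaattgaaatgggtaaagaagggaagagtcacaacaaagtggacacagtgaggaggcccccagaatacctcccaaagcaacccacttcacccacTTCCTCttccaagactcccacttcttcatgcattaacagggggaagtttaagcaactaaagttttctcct

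These 3 motifs and 2 others were searched on both strands of the 250 bases before the RefSeq start site, where -1 is the base next to it. Trem2 held 3 matches: an AP-1 site at -9, a PU.1 core at -40 and the hexamer at -68. Itgax held an AP-1 site at -56, and Mmp12 a PU.1 core at -86. Capg held the hexamer at -26, Cd63 2 PU.1 cores at -244 and -59, and Cd9 an M-box, CATGTG, at -38. Gpnmb held no match to any of them, and no member held the E-box CACGTG, the other letters to which MiT/TFE factors of lysosome genes bind. No matches overlapped. Of 32851 promoters in the table, 6.75% held the AP-1 letters, 23.3% the PU.1 core, 14.0% the hexamer, 12.3% the M-box and 6.02% the E-box. A match describes letters and shows no binding.

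The 8 libraries held 80575 barcodes, of which 79794 sequences were distinct and 776 occurred in more than 1 library. Total counts ran from 17948627 to 34363108 unique molecular identifiers (UMIs, 1 per captured RNA molecule), and the median barcode from 1120 to 2656 UMIs. Nuclei were assigned to classes by gates: at least 3 distinct marker genes of 1 class detected, none of the members being a marker. The gates held 10324 macrophage-like nuclei, between 488 and 2493 per mouse, and between 1783 and 7189 hepatocyte-like nuclei. All 20 macrophage markers were detected in the macrophage-gated nuclei of every mouse. Of these markers 2, Vsig4 and Adgre1, were among the leading genes of the 7 mice without RD tumour 1. The gate selects for its own markers, so their detection is no independent support for it. RD tumour 1 stood apart: 6591 of its 20000 barcodes met 2 gates and 4660 met the neutrophil gate, and its macrophage-gated and hepatocyte-gated nuclei held similar levels of all 9 members. Its values are given beside those of the others throughout, and results that rest on it are also given without it, apart from the correlations. Values below are CPM, the UMIs of a gene per 1e6 UMIs summed over the nuclei of a class and mouse, compared within a gene and not between genes.

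Macrophage-gated nuclei carried more Mmp12, Gpnmb, Itgax, Trem2, Capg and Lpl than hepatocyte-gated nuclei of the same mice. Atp6v0d2, Cd63 and Cd9 did not pass the test. Trem2 in macrophage-gated nuclei was 16.6, 25.3 and 29.8 CPM in WD tumour mice 1 to 3, 7.68 and 3.04 in RD tumour mice 1 and 2, and 9.64, 7.77 and 5.50 in RD no tumour mice 1 to 3. In hepatocyte-gated nuclei it was 2.31, 10.4 and 4.11, then 9.09 and 1.53, then 2.28, 0.966 and 0.244 CPM. The macrophage value was the higher in 7 of 8 mice, RD tumour 1 being the exception. With the mouse as a block, the log2 difference was 1.89 (SE 0.35, edgeR adjusted p = 0.000757). The differences were 2.50 for Gpnmb (SE 0.34, higher in 8 of 8 mice), 2.48 for Mmp12 (SE 0.23, 7 of 8) and 1.96 for Itgax (SE 0.28, 7 of 8). They were 1.24 for Capg (SE 0.31, 8 of 8) and 1.18 for Lpl (SE 0.33, 6 of 8). So 6 of 9 members were called higher and 0 lower, where 22.4% of 16708 genes were called higher and 31.1% lower. Leaving out any 1 mouse left the count at 6. The differences that did not pass were 0.26 for Atp6v0d2, 0.13 for Cd63 and -0.08 for Cd9. For Atp6v0d2 the mice went in opposite directions. Its macrophage-gated value was lower in WD tumour 2, RD tumour 1 and RD no tumour 1, and higher in the other mice. It was 83.4 against 21.5 CPM in hepatocyte-gated nuclei of WD tumour 1, and 36.6 against 53.1 in WD tumour 2. The macrophage-gated nuclei themselves held hepatocyte RNA. All 12 hepatocyte markers were detected in them in every mouse, at a summed level of 10619 to 24635 CPM. The part of this RNA in the member levels was not tested.

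**Figure D1:**
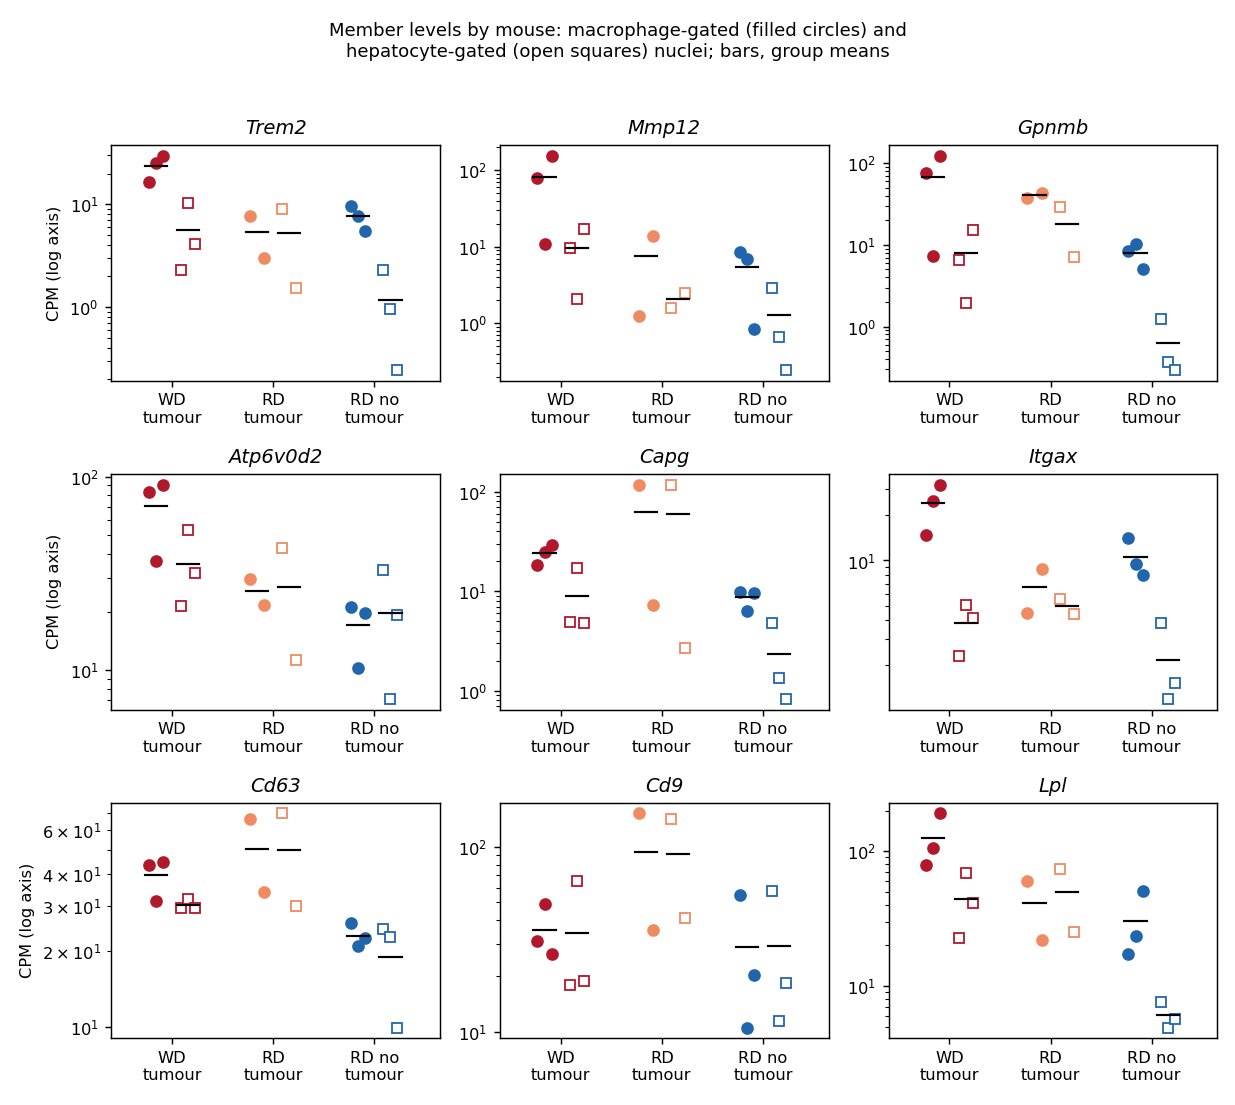
CPM of each member in macrophage-gated (filled circles) and hepatocyte-gated nuclei (open squares) of every mouse, on a log axis, by group, with bars at group means. Trem2, Mmp12, Gpnmb and Itgax sit above their hepatocyte values in at least 7 of 8 mice, while Atp6v0d2, Cd63 and Cd9 do not separate.

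Gpnmb, Mmp12 and Trem2 were higher in macrophage-gated nuclei than in endothelial, stellate/fibroblast, cholangiocyte, T/NK and B nuclei. Itgax was called higher in all of these but T/NK nuclei (edgeR adjusted p = 0.117). Against endothelial nuclei 7 members were higher and Cd9 lower (log2 difference -0.79, SE 0.22), where 19.5% of genes were higher and 17.5% lower. Against cholangiocyte nuclei 7 were higher (14.4% of genes) and Cd9 lower (-1.05, SE 0.23, 12.4% of genes). Against stellate/fibroblast nuclei 5 were higher (28.1% of genes) and 2 lower (22.1% of genes): Cd63 (-0.88, SE 0.18) and Lpl (-0.74, SE 0.27, edgeR adjusted p = 0.0371). Against T/NK nuclei 5 were higher (20.8% of genes) and 0 lower (11.6% of genes), and against B nuclei 6 were higher (14.1% of genes) and 0 lower (7.08% of genes). These 2 classes were small, with at most 179 nuclei a mouse. No T/NK nucleus of the 7 mice tested had a Trem2 UMI, so no fold is given for it. In B nuclei the sums were 2 UMIs of Trem2, 1 of Mmp12, 3 of Gpnmb and 4 of Itgax.

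The order of the classes differed from member to member. Over the 7 mice without RD tumour 1, Trem2 was highest in macrophage-gated nuclei (median 9.64 CPM, range 3.04 to 29.8), followed by stellate/fibroblast (3.51, 0 to 7.93) and hepatocyte nuclei (2.28). Mmp12 had a macrophage median of 10.8 CPM (0.846 to 156) and medians of at most 3.27 in the classes measured in 7 mice. Gpnmb had 10.3 CPM in macrophage-gated nuclei (5.08 to 124) and 6.35 in stellate/fibroblast nuclei (1.42 to 28.7), and those ranges overlap. Itgax was highest in dendritic-gated nuclei, at 68.4 and 77.1 CPM in the 2 mice with at least 20 of them, above every macrophage value (8.04 to 32.2). Those dendritic nuclei had no Trem2 and no Gpnmb UMI.

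The tetraspanins and the lipase had other leading classes. Cd63 was highest in stellate/fibroblast nuclei (median 55.5 CPM, 35.4 to 78.6) and lay at 31.3 in macrophage-gated nuclei. Lpl was highest there too (78.3, 39.2 to 156), with 50.8 in macrophage-gated nuclei (17.2 to 191). Cd9 had its highest medians in neutrophil (75.8, 3 mice) and cholangiocyte nuclei (62.7) and 30.8 in macrophage-gated nuclei. Atp6v0d2 was at 21.7 CPM in macrophage-gated and 21.5 in hepatocyte-gated nuclei, and at 38.7 in the neutrophil nuclei of 3 mice. Capg reached 24.0 in B nuclei (0 to 49.9) against 9.94 in macrophage-gated nuclei (6.38 to 29.0), with overlapping ranges. For each member but Itgax, the range over mice of the leading class overlapped that of the next class.

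**Figure D2:**
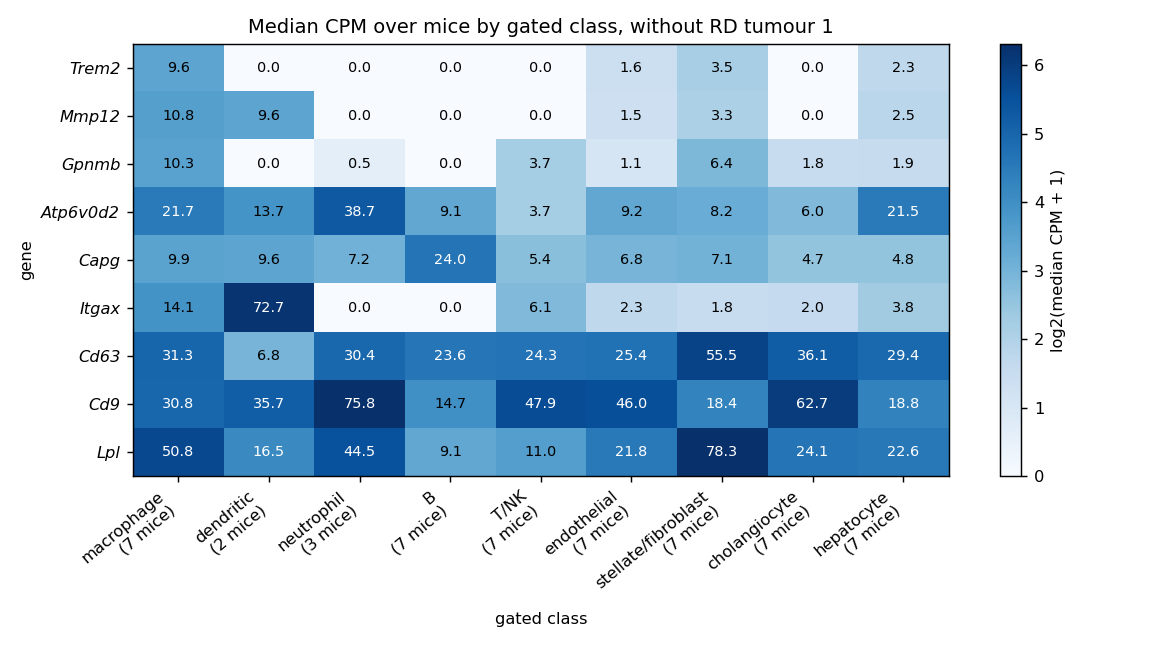
Median CPM over mice (colour and number) of each member (rows) in each gated class (columns), without RD tumour 1, over 7 mice except for the dendritic (2 mice) and neutrophil (3 mice) classes. Trem2, Mmp12 and Gpnmb are highest in the macrophage column, Itgax in the dendritic column, and Cd63 and Lpl in the stellate/fibroblast column.

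The share of each member's UMIs that lay in macrophage-gated nuclei also varied among the members. The median over 8 mice was 47.4% of the library's UMIs for Mmp12, 41.4% for Gpnmb, 38.8% for Trem2 and 38.4% for Itgax. It was 28.9% for Capg, 26.1% for Lpl, 21.3% for Atp6v0d2, 13.1% for Cd63 and 11.7% for Cd9. Hepatocyte-gated nuclei held 49.4% of the Atp6v0d2 UMIs, 43.2% of Cd63 and 43.1% of Cd9. They also held 23.0% of the Trem2 and 22.5% of the Mmp12 UMIs, part of which can be RNA free in the suspension. Over all 8 libraries the members gave from 1329 UMIs (Itgax) to 11758 (Cd9). For Capg, 4756 of 6083 UMIs came from 1 library, RD tumour 1.

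Across the 3 groups, WD tumour mice had the highest macrophage-gated levels of most members, without any gene passing the adjusted threshold. Mmp12 was 80.0, 10.8 and 156 CPM in WD tumour mice, 1.24 and 14.1 in RD tumour mice, and 8.60, 6.94 and 0.846 in RD no tumour mice. WD tumour 2 stood well below the other WD tumour mice and below RD tumour 2, but even WD tumour 2 lay above each RD no tumour mouse. Gpnmb was 74.8, 7.22 and 124 CPM in WD tumour mice, 37.9 and 43.0 in RD tumour, and 8.31, 10.3 and 5.08 in RD no tumour mice. Here WD tumour 2 fell among the RD no tumour mice, and both RD tumour mice lay above them. Trem2, given above, did not overlap between WD tumour (16.6 to 29.8) and the 5 mice returned to chow (3.04 to 9.64). Its mean was 23.9 ± 6.73 (SD, n = 3) in WD tumour mice, 5.36 ± 3.28 (n = 2) in RD tumour and 7.64 ± 2.07 CPM (n = 3) in RD no tumour mice.

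The lysosome and lipid members gave these values. Atp6v0d2 was 83.4, 36.6 and 91.0 CPM in WD tumour mice, 29.5 and 21.7 in RD tumour, and 21.4, 10.3 and 19.9 in RD no tumour mice, with no overlap between any pair of groups. Lpl was 78.2, 106 and 191 CPM in WD tumour mice, 60.5 and 22.1 in RD tumour, and 17.2, 23.6 and 50.8 in RD no tumour mice. WD tumour was above all chow-returned mice for Lpl, and the reversal groups overlapped. Itgax was 14.9, 25.1 and 32.2 CPM in WD tumour mice, 4.46 and 8.75 in RD tumour, and 14.1, 9.44 and 8.04 in RD no tumour mice, and WD tumour 1 was barely above RD no tumour 1. Cd63 was 39.8 ± 7.39 CPM (SD, n = 3) in WD tumour mice, 50.2 ± 22.6 (n = 2) in RD tumour and 23.0 ± 2.47 (n = 3) in RD no tumour mice, and both tumour groups lay above the third. In hepatocyte-gated nuclei Lpl, Gpnmb, Trem2 and Cd63 also did not overlap between WD tumour and RD no tumour mice. Lpl was 22.6, 68.7 and 41.2 CPM there in WD tumour and 7.55, 4.90 and 5.71 in RD no tumour mice. Gpnmb was 6.56, 1.93 and 15.3 against 1.24, 0.372 and 0.293 CPM. Mmp12, Atp6v0d2, Capg, Itgax and Cd9 overlapped there. The group differences are thus not all particular to the macrophage gate, and their source was not tested.

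Capg and Cd9 turned on RD tumour 1. Capg was 118 CPM in that mouse and 7.22 in RD tumour 2, against 18.3, 24.8 and 29.0 in WD tumour and 9.94, 6.38 and 9.73 in RD no tumour mice. Cd9 was 151 CPM in that mouse and 35.4 in RD tumour 2, against 30.8, 49.2 and 26.3 in WD tumour and 55.0, 10.5 and 20.3 in RD no tumour mice. Its hepatocyte-gated nuclei held as much of both, 117 CPM of Capg and 141 of Cd9. The summed level of 12 neutrophil markers in its macrophage-gated nuclei was 1626 CPM. That sum was 422 CPM in RD no tumour 1, 159 in WD tumour 2 and 15.7 to 64.6 in the others, where up to 5 of the 12 markers, among them Mpo and Elane, were at 0. The part of granulocyte RNA in the member levels was not tested.

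In macrophage-gated nuclei, the log2 differences of WD tumour from RD no tumour mice were 3.81 for Mmp12 (SE 1.16), 3.07 for Gpnmb (SE 0.86), 2.01 for Atp6v0d2 (SE 0.43), 2.01 for Lpl (SE 0.57) and 1.60 for Trem2 (SE 0.41). They were 1.44 for Capg (SE 0.80), 1.15 for Itgax (SE 0.39), 0.77 for Cd63 (SE 0.30) and 0.28 for Cd9 (SE 0.68). All 9 were above 0, with a median of 1.60 against -0.01 over the 14228 genes tested. Of the members 7 had an unadjusted p under 0.05 and 0 passed the edgeR adjusted threshold (adjusted p = 0.9998 for each). Over all genes 0 passed (0% called), 291 had an unadjusted p under 0.05, and DESeq2 called 3. In 7 of 9 members every WD tumour mouse lay above every RD no tumour mouse, Gpnmb and Cd9 being the exceptions, against 5.69% of all genes, and in 0 members did all lie below (4.08% of all genes). Over the 5 libraries with the least granulocyte RNA (WD tumour 1 and 3, RD tumour 2, RD no tumour 2 and 3), an alternative chosen after seeing the data, edgeR called 15 of 13846 genes (0.108%). Gpnmb was the 1 member among them (log2 difference 3.61, SE 0.38, adjusted p = 0.0489). The median mitochondrial share of UMIs was 7.91% and 7.51% in WD tumour 1 and 3, the mice highest in Mmp12 and Gpnmb, and 1.30% to 3.28% in the other 6. Over barcodes with at most 5% mitochondrial UMIs the log2 differences were 3.81 for Mmp12, 2.89 for Gpnmb and 1.59 for Trem2. Among nuclei with a Clec4f UMI, also chosen after seeing the data, they were 2.84 (SE 0.87), 2.61 (SE 0.54) and 1.58 (SE 0.32), and 0 members passed.

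**Figure D3:**
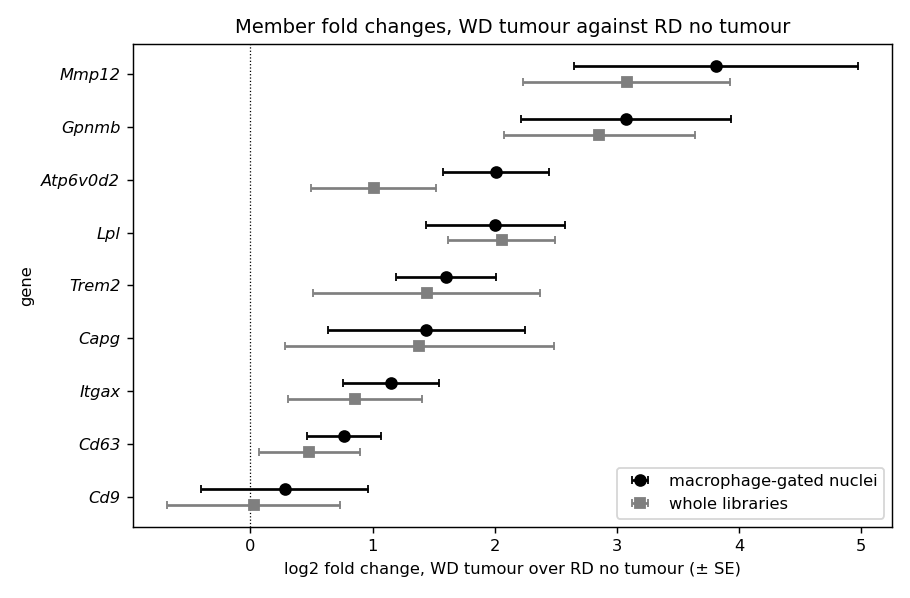
Log2 fold change of each member between WD tumour and RD no tumour mice (3 mice a group), with bars of 1 SE, in macrophage-gated nuclei and in whole libraries. All points lie above 0, Mmp12 and Gpnmb farthest and Cd9 nearest to it, and none passes the adjusted threshold.

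The groups that differ in 1 respect each rested on 2 RD tumour mice. For RD tumour against RD no tumour, where diet was the same, 0 members and 0% of genes passed the edgeR threshold (1250 genes at an unadjusted p under 0.05). Atp6v0d2, Gpnmb and Cd63 were higher in both RD tumour mice than in all RD no tumour mice, 3 of 9 members against 11.7% of all genes, and 0 were lower in both (9.1% of all genes). The summed level of 12 stellate/fibroblast markers in macrophage-gated nuclei was 308 and 291 CPM in RD tumour against 60.9 to 161 CPM in RD no tumour mice, with 11 or 12 and 9 to 12 of the markers detected. Cd63 was highest in stellate/fibroblast nuclei, and the part of their RNA in these differences was not tested. For WD tumour against RD tumour, which differ in diet among tumour-bearing mice, 0 members and 0% of genes passed (1314 genes at an unadjusted p under 0.05). Atp6v0d2, Itgax, Lpl and Trem2 were higher in all WD tumour mice, 4 of 9 members against 11.3% of all genes, and 0 were lower in all (12.1% of all genes). These comparisons share mice with each other and with the first.

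Whole libraries gave the same direction with more overlap, and here fewer cells of a type and less RNA per cell cannot be told apart. Mmp12 was 17.1, 4.35 and 32.9 CPM in WD tumour mice, 1.69 and 4.23 in RD tumour, and 3.61, 2.07 and 0.738 in RD no tumour mice. Lpl was 31.6, 82.9 and 64.7 CPM in WD tumour mice, 62.3 and 26.5 in RD tumour, and 14.7, 12 and 14.3 in RD no tumour mice. For both genes every WD tumour library lay above every RD no tumour library, and for Lpl both RD tumour libraries did too. Trem2 was 4.29, 15.9 and 7.73 CPM in WD tumour mice, 11.8 and 1.46 in RD tumour, and 6.57, 2.60 and 0.891 in RD no tumour mice. Unlike in macrophage-gated nuclei, Trem2 overlapped between all 3 groups.

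In whole libraries the log2 difference between WD tumour and RD no tumour was 3.08 for Mmp12 (SE 0.85), 2.86 for Gpnmb (SE 0.78), 2.06 for Lpl (SE 0.44) and 1.44 for Trem2 (SE 0.93). It was 0.03 for Cd9 (SE 0.70). The member median was 1.38 against -0.01 over 19092 genes. By edgeR 0 members and 0% of genes passed, 3 members and 526 genes had an unadjusted p under 0.05, and DESeq2 called 46 genes (0.241%), Lpl and Mmp12 among them. Non-overlap in this direction held for 5 members, Atp6v0d2, Gpnmb, Lpl, Mmp12 and Cd63, against 7.24% of all genes. Both RD tumour libraries lay above all RD no tumour libraries for Gpnmb and Lpl (11% of all genes), and all WD tumour libraries above both RD tumour libraries for Mmp12 alone (10.6% of all genes). In the opposite direction 0 members separated in any of the 3 comparisons, against 3.61%, 5.81% and 10.7% of all genes.

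Per nucleus the members were sparse. A Trem2 UMI was found in 4.51% (22 of 488 nuclei, 95% exact binomial interval 2.85 to 6.75), 7.44% and 7.78% of macrophage-gated nuclei of WD tumour mice. It was found in 1.24% and 0.676% in RD tumour and in 2.59%, 2.85% and 1.86% in RD no tumour mice. In hepatocyte-gated nuclei the share was 0.546%, 2.51% and 0.988% in WD tumour mice, 1.23% and 0.278% in RD tumour, and 0.643%, 0.403% and 0.0696% in RD no tumour mice. RD tumour 1 had about the same share in both gates, so its share is not read as macrophage signal. Median depth was 1321 to 3044 UMIs in macrophage-gated and 908 to 4051 in hepatocyte-gated nuclei, and intervals cover counting error only. For Lpl the macrophage-gated shares were 12.9%, 23.3% and 25.6% in WD tumour mice, 9.19% and 4.93% in RD tumour, and 3.36%, 4.79% and 11.1% in RD no tumour mice. Mean shares of WD tumour mice exceeded those of RD no tumour mice by 14.2 percentage points for Lpl, 6.62 for Gpnmb, 6.51 for Mmp12 and 4.14 for Trem2. After every nucleus was thinned to 1000 UMIs these were 7.64, 5.20, 4.10 and 1.34 percentage points.

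Members were also found together in the same nuclei. At least 2 of the 9 were detected in 16%, 18.1% and 26.1% of macrophage-gated nuclei of WD tumour mice, in 14.4% and 5.51% in RD tumour mice and in 5.35%, 4.45% and 5.43% in RD no tumour mice. In hepatocyte-gated nuclei the shares were 2.52%, 9.31% and 4.45%, then 13.1% and 1.75%, then 3.89%, 1.58% and 0.890%. Thinned to 1000 UMIs, the macrophage-gated shares were 8.35%, 3.99% and 13.3% in WD tumour mice, 6.77% and 2.41% in RD tumour, and 1.23%, 1.28% and 1.59% in RD no tumour mice. All 3 WD tumour mice stayed above all RD no tumour mice at equal depth, and RD tumour 1 had about as much in its hepatocyte-gated nuclei (7.47% thinned). At least 3 members were found in 8.20%, 4.40% and 13.1% of the WD tumour nuclei and in at most 1.14% of those of any RD no tumour mouse, unthinned.

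**Figure D4:**
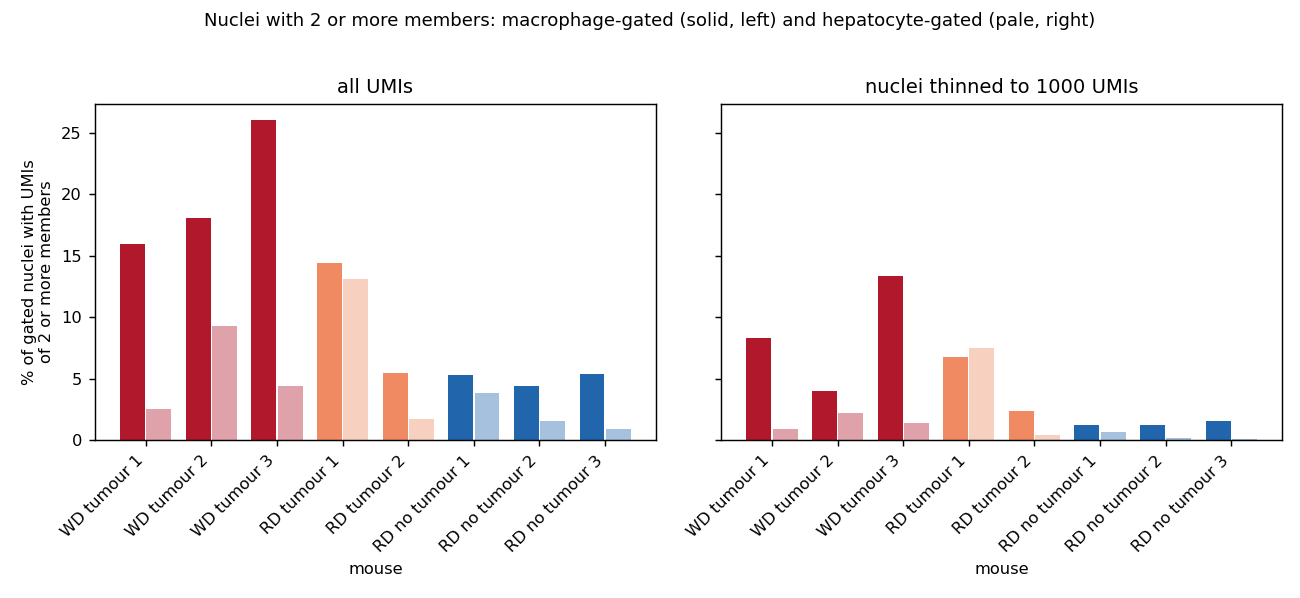
Share of macrophage-gated (solid) and hepatocyte-gated nuclei (pale) with at least 2 of the 9 members, by mouse, unthinned and thinned to 1000 UMIs. In both panels the WD tumour mice are above the RD no tumour mice in the macrophage gate, and RD tumour 1 has near-equal bars in both gates. In the thinned panel the WD tumour mice are also above the RD no tumour mice in the hepatocyte gate.

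Among the 2902 macrophage-gated nuclei of WD tumour mice, 160 had Gpnmb. Of these, 46.2% also had Lpl (22.2% of all gated nuclei did), 43.1% Atp6v0d2 (8.99% of all), 29.4% Mmp12 (5.17% of all) and 26.9% Trem2 (7.03% of all). Of the 150 nuclei with Mmp12, 56.0% had Lpl, 34.0% Atp6v0d2, 31.3% Gpnmb (5.51% of all) and 22.0% Trem2. Nuclei with many UMIs hold more of every gene, and the mice differ, so these shares are a description.

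Many nuclei with a member had neither Clec4f nor Ccr2 detected, as did most macrophage-gated nuclei with or without a member. Neither marker was found in 1766 of 2902 WD tumour, 2820 of 3528 RD tumour and 2106 of 3894 RD no tumour gated nuclei. Clec4f only was found in 915, 637 and 1386 of them, and Ccr2 only in 192, 53 and 352. Member shares near this split are not particular to the members. Pooled over the 8 mice, which contribute unequal numbers of nuclei to each member, the share of a member's nuclei with neither was 60.9% to 74.8% for 8 members and 46.2% for Mmp12. Without RD tumour 1 it was 44.8% to 69.0% over the 9 members, with Mmp12, Capg (48.1%) and Gpnmb (49.4%) below 50%. Of 340 macrophage-gated nuclei with Trem2 over the 8 mice, 25.6% had Clec4f only, 11.8% Ccr2 only, 1.76% both and 60.9% neither. Of 199 nuclei with Mmp12, 47.2% had Clec4f only and 4.52% Ccr2 only, and of 357 with Itgax 17.1% and 10.1%. For the others the Clec4f-only share was 18.8% for Cd9, 22.7% for Capg, 24.0% for Atp6v0d2, 29.0% for Gpnmb, 31.4% for Cd63 and 31.7% for Lpl, with 4.52% to 6.07% Ccr2 only. RD tumour 1 gave 425 of the 770 nuclei with Capg, and without that mouse the Capg share was 39.7% Clec4f only and 10.1% Ccr2 only. The Ccr2-only share without it was 9.39% for Gpnmb and 8.44% for Cd9. Of all 1035 gated nuclei of RD tumour 2, 443 had Clec4f only and 42 Ccr2 only. Shares without RD tumour 1 have as their base these counts and those of WD tumour and RD no tumour mice above. The split over all 8 mice, which includes RD tumour 1, is not their base. The marker split depends on the mouse: in RD tumour mice 89.5% of 38 Trem2 nuclei had neither marker, beside 2820 of all 3528 gated nuclei.

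Between the subsets, Trem2 and Itgax were higher in Ccr2-only nuclei and Mmp12 was higher in Clec4f-only nuclei. Clec4f-only nuclei numbered 194 to 573 per mouse and Ccr2-only nuclei 11 to 269, with median depths of 1277 to 3024 and 1134 to 2868.5 UMIs. Trem2 in Clec4f-only nuclei was 23.6, 24.4 and 18.8 CPM in WD tumour mice, 3.12 and 3.43 in RD tumour, and 5.40, 8.0 and 6.73 in RD no tumour mice. In Ccr2-only nuclei it was 27.3, 61.7 and 84.6, then 0 and 0, then 12.8, 31.9 and 0 CPM. The Ccr2-only value was higher in 5 of 8 mice, and in the other 3 it was 0, from 11, 42 and 25 nuclei. The log2 difference, Clec4f-only minus Ccr2-only with the mouse as a block, was -1.31 (SE 0.33, edgeR adjusted p = 0.00433, range over the alternatives 0.0002 to 0.104). It did not pass without WD tumour 3 (-1.07, adjusted p = 0.104) or with a gate of 2 markers (-1.39, adjusted p = 0.0522).

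Itgax in Clec4f-only nuclei was 11.8, 9.75 and 21.4 CPM in WD tumour mice, 3.12 and 6.00 in RD tumour, and 6.00, 3.43 and 3.37 in RD no tumour mice. In Ccr2-only nuclei it was 27.3, 20.6 and 107, then 0 and 50.1, then 14.4, 31.9 and 0 CPM. The Ccr2-only value was the higher in 6 of 8 mice, and the log2 difference was -1.86 (SE 0.36, edgeR adjusted p = 0.000132, range over the alternatives 4.9e-06 to 0.114, the highest with a gate of 2 markers). Itgax also marks dendritic cells, some of which carry Ccr2. Macrophage-gated nuclei held 125 to 253 CPM of 12 dendritic markers in summed level, and the part of such nuclei in this difference was not tested.

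Mmp12 went the other way. In Clec4f-only nuclei it was 78.8, 35.1 and 134 CPM in WD tumour mice, 0 and 3.43 in RD tumour, and 24.0, 9.71 and 0 in RD no tumour mice. In Ccr2-only nuclei it was 72.9, 2.94 and 102, then 0 and 0, then 1.60, 0 and 0 CPM. It was higher in Clec4f-only nuclei in 6 of 8 mice and at 0 in both subsets in the other 2. The Ccr2-only values rested on few UMIs: 8, 1 and 18 in WD tumour mice and 1 in RD no tumour 1. The 0 of RD tumour 2 and of RD no tumour 2 came from 42 and 58 nuclei. The log2 difference was 1.21 (SE 0.35, edgeR adjusted p = 0.0151, range over the alternatives 0.00188 to 0.823). It did not pass without WD tumour 2 (0.94, adjusted p = 0.138), without RD no tumour 1 (0.88, adjusted p = 0.208) or by DESeq2 (1.01, adjusted p = 0.823).

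The other 6 members did not pass. Gpnmb was at -0.66 (SE 0.32, edgeR adjusted p = 0.282) and passed without WD tumour 2 (-0.94, adjusted p = 0.0327). Cd9 was at -0.36, Capg at -0.14, Lpl at -0.12, Atp6v0d2 at 0.03 and Cd63 at 0.14. So 1 of 9 members was called higher in Clec4f-only nuclei and 2 lower, where 4.01% of 10196 genes were higher and 3.27% lower. With nuclei pooled over the mice of a group, 15.1% of 192 Ccr2-only nuclei in WD tumour mice had Trem2 against 5.79% of 915 Clec4f-only nuclei. In RD no tumour mice it was 3.12% of 352 against 2.16% of 1386. WD tumour 2 gave 105 of those 192 Ccr2-only nuclei, and RD no tumour 1 gave 269 of the 352. Lpl was found in 22.9% and 23.3% of these WD tumour nuclei, and in 4.26% and 7.36% in RD no tumour mice. The pooled shares were thus higher for WD tumour mice in both subsets, a difference not tested within the subsets.

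**Figure D5:**
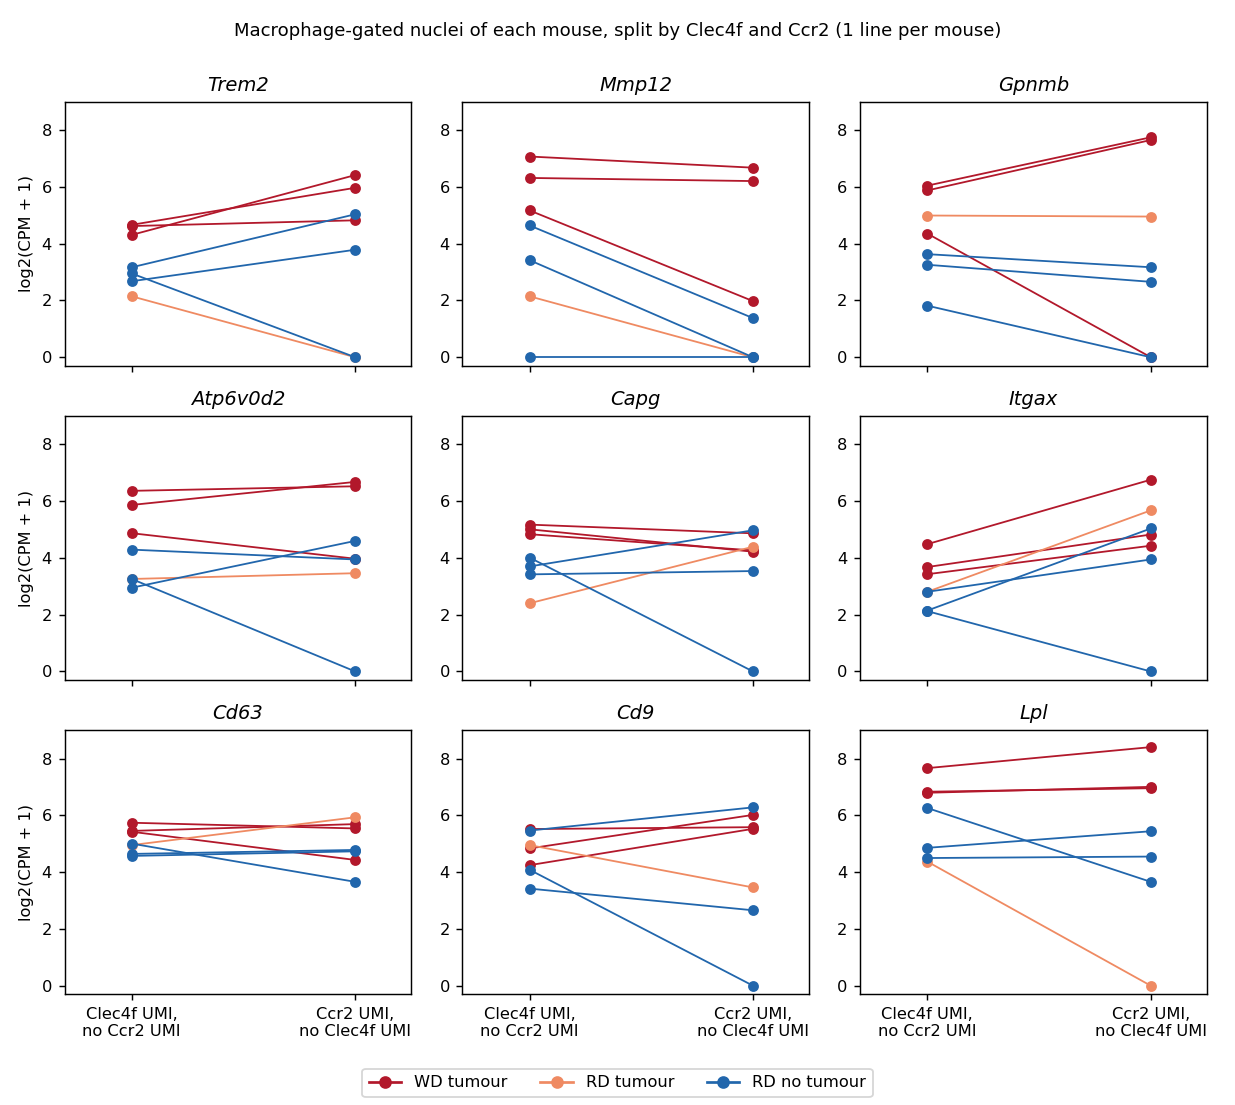
log2(CPM + 1) of each member in macrophage-gated nuclei with a Clec4f and no Ccr2 UMI and in those with a Ccr2 and no Clec4f UMI, 1 line per mouse, coloured by group. Only mice with at least 20 nuclei in both subsets are drawn, which leaves out RD tumour 1. Trem2 and Itgax rise towards the Ccr2 side in 5 and 6 of the mice drawn, and Mmp12 falls towards it in 6.

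Genes that work with the members were read from lists chosen by function. Of 6 genes of Trem2 signalling, 5 were called higher in macrophage-gated than in hepatocyte-gated nuclei (the adaptors Tyrobp and Hcst, the kinase Syk, Plcg2 and the phosphatase Inpp5d), and Apoe, an apolipoprotein that hepatocytes make, was lower. Of 15 lysosome genes 10 were higher and 3 lower (Ctsl, Npc1 and Lamp2). Of 10 genes of lipid uptake, storage and efflux 5 were higher (Soat1, Nr1h3, Pparg, Msr1 and Abcg1) and 0 lower. All 4 MiT/TFE factors (Tfec, Mitf, Tfeb and Tfe3), which drive lysosome genes, were higher. Of 10 scar-associated macrophage genes, 9 were tested, 5 were higher and Spp1 was lower. These counts are from edgeR and stand beside 22.4% of all genes higher and 31.1% lower. The list medians of the log2 difference were 1.96, 0.41, 0.67, 1.24 and 0.45 in that order.

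Between WD tumour and RD no tumour, 0 genes of these lists passed in macrophage-gated nuclei. The medians were 0.01 for Trem2 signalling (3 of 6 above 0), 0.19 for the lysosome (9 of 15), 0.41 for lipid handling (9 of 10), 0.19 for MiT/TFE factors (4 of 4) and 0.68 for scar-associated genes (8 of 9), against -0.01 over all genes. Cd36, a fatty acid transporter, was 151 ± 48.0 CPM (SD, n = 3) in WD tumour mice, 59.0 ± 15.3 in RD no tumour mice, a log2 difference of 1.34. Lgals1, a galectin, was 15.2 ± 5.53 and 4.28 ± 1.15 CPM (1.77). Ctsl, a lysosomal protease, was the lower in WD tumour mice, at 305 ± 24.4 against 622 ± 201 CPM (-1.05). The median was -0.18 for 7 Kupffer markers and -0.82 for 5 monocyte markers. The summed Kupffer markers ran from 922 to 1669 CPM in WD tumour mice and from 1202 to 1664 in RD no tumour mice. The monocyte markers ran from 105 to 168 and from 89.9 to 561. All 12 of these markers were detected in every mouse. Their part in the member levels was not tested.

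Between Clec4f-only and Ccr2-only nuclei, Atp6v1b2, Lgmn and Ctsb of the lysosome list, Nr1h3, Abca1 and Msr1 of the lipid list and Tfec were called higher on the Clec4f side. Plcg2, Pparg, Vim and Itgam were called higher on the Ccr2 side. Nr1h3 encodes the sterol receptor LXRα of Kupffer cells, and Abca1 exports cholesterol. Beside these calls stand the 4.01% and 3.27% of all genes given above.

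Over 59 sums of a mouse and a class, the genes most like each member were found by Pearson's r of log2(CPM + 1), a description in which sums share libraries and depth. Between members the highest values were 0.58 for Gpnmb with Lpl, 0.54 for Mmp12 with Gpnmb and 0.50 for Trem2 with Atp6v0d2, and the lowest was -0.15 for Mmp12 with Cd9. Trem2 was most like Muc6 (0.73), Ppnr (0.73) and Cd207 (0.72). Itgax was most like Lair1 (0.78), an inhibitory receptor of leukocytes, and Capg like Ifi30 (0.75), a lysosomal thiol reductase. Gpnmb was most like BC005537 (0.69), Mmp12 like Gm8113 (0.63) and Atp6v0d2 like Slc22a26 (0.64), a transporter of the organic anion family. Cd63 was most like Ap4e1 (0.83), Lpl like Coro1c (0.67), and Cd9 like Clu and the granulocyte gene Ngp (0.74 each). The sums include those of RD tumour 1, which was high in Cd9 and neutrophil markers, and no correlation was computed without that mouse. Genes needed only 50 UMIs over all sums, so shared values of 0 can weigh in some matches. No member was among the 3 genes most like another.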

How the data were processed

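The deposited files, 1 matrix per mouse, hold raw UMI counts of every gene in every barcode, made with Cell Ranger 7.0.0 on mm10 per the submitters' processing notes, from Chromium 3′ version 3.1 libraries per the labels. Whether intronic reads were counted and how barcodes were called is not given in the sources used here, and no count was adjusted for free RNA. Barcodes with at least 300 genes were kept and no doublet caller was run. A gate needed 3 distinct markers of a class, and barcodes meeting 2 gates were left out, except between macrophage and dendritic, where the class with more markers won. Hepatocyte nuclei needed 5 markers and no other class. The classes are rebuilt and are called by these gates.

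Raw counts were summed per mouse and class (at least 20 nuclei, or 10 in a Clec4f or Ccr2 subset). They were tested with edgeR 4.0.16 in R 4.3.3 (quasi-likelihood F test, TMM, filterByExpr, Benjamini-Hochberg over all genes, threshold 0.05). DESeq2 1.42.0 was an alternative, beside other gates, filters, and leaving out each mouse. An added gate alternative is not reported here. The mouse is the replicate, 2 or 3 per group, and the test scripts were tested on simulated data. For macrophage-gated WD tumour against RD no tumour sums, 56% of simulated 4-fold and 100% of 16-fold changes passed the threshold. The simulation changed only genes with a mean count above 20 and gave each gene the spread typical of its level. It held no differences between mice that run through a whole library, such as granulocyte RNA. The shares that would pass in these data can therefore be lower. A member that did not pass there can therefore still differ. Thinning drew 1000 or 500 UMIs per nucleus and left out shallower nuclei. Intervals are exact binomial (Clopper-Pearson) at 95% and cover counting error only. The named genes are all 9 members, up to 4 of each list with the lowest p, and for each member the 3 most correlated genes, of which the text gives some. The members and lists were chosen with earlier results of these data known.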

Additional observations from a re-analysis of the deposited data

Results flagged for a closer look

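The sign of the Lpl difference between gates varied by group, with small differences in RD tumour mice. Its macrophage-gated level minus its hepatocyte-gated level was positive in all 3 WD tumour mice (mean 80.8 CPM), negative in both RD tumour mice (mean -8.31) and positive in all 3 RD no tumour mice (mean 24.5). The difference between the groups was not tested. RD tumour 1, whose gates held similar levels of all 9 members, had 60.5 CPM in macrophage-gated and 73.9 in hepatocyte-gated nuclei, and RD tumour 2 had 22.1 and 25.3. The 22.1 CPM rested on 58 UMIs, so no difference in the opposite direction is read from the RD tumour mice.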

How the results depend on the processing

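In edgeR's tests of WD tumour against RD no tumour, 0 members passed whichever single mouse was left out, in macrophage-gated nuclei and in whole libraries (0 to 0). Over the 5 libraries with little granulocyte RNA 1 passed in macrophage-gated nuclei, and DESeq2 called 2 in whole libraries. For WD tumour against RD tumour DESeq2 called 1 (Trem2, macrophage-gated), and for RD tumour against RD no tumour 1 (Gpnmb, whole libraries). Leaving out 1 mouse gave 0 to 2 members (RD tumour against RD no tumour) and 0 to 3 (WD tumour against RD tumour) in macrophage-gated nuclei, and 0 to 4 and 0 to 2 in whole libraries, the upper values all without RD tumour 2. Against other classes it gave 6 to 6 (hepatocyte), 7 to 8 (endothelial), 6 to 8 (stellate/fibroblast, cholangiocyte), 5 to 7 (T/NK) and 4 to 6 (B). Against B nuclei DESeq2 called 3. Between Clec4f-only and Ccr2-only nuclei leaving out 1 mouse gave 2 to 3, and a gate of 2 markers gave 1, with Trem2 at -1.39 (adjusted p = 0.0522) and Itgax at -1.30 (adjusted p = 0.114).

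Leaving out 1 mouse at a time changed the sign of some small log2 differences, with these ranges: Cd9 between WD tumour and RD no tumour mice, -0.10 to 1.19 (macrophage-gated, below 0 without RD no tumour 2 or WD tumour 2) and -0.57 to 0.77 (whole libraries, below 0 without RD no tumour 2, RD no tumour 3 or WD tumour 2); Cd9 against hepatocytes, -0.13 to 0.013; and, between Clec4f-only and Ccr2-only nuclei, Atp6v0d2 -0.15 to 0.35, Capg -0.37 to 0.30, Lpl -0.26 to 0.080 and Cd63 -0.040 to 0.26. Over barcodes with at most 5% mitochondrial UMIs Cd9 was -0.16 in whole libraries. With 2 markers Cd63 was -0.065 against hepatocytes, Cd9 was -0.27 against stellate/fibroblast nuclei, Cd63 0.18 against cholangiocyte nuclei (0.037 without the 5% of barcodes with the most UMIs), and Capg -0.0059 against T/NK and 0.32 against B nuclei. Between Clec4f-only and Ccr2-only nuclei, Atp6v0d2 was -0.006 with 2 markers and -0.062 without the top 5%. Capg was 0.19 with 2 markers, Gpnmb 0.16 by DESeq2, Lpl 0.012 by DESeq2 and 0.068 over all barcodes, and Cd63 -0.058 with 4 markers. The cause was not tested.

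The WD tumour minus RD no tumour differences in the share of nuclei, thinned to 1000 and 500 UMIs, were 1.34 and 1.12 percentage points for Trem2, 4.10 and 2.49 for Mmp12, 5.20 and 2.70 for Gpnmb, 3.82 and 2.66 for Atp6v0d2, 1.88 and 0.516 for Capg, 1.42 and 0.753 for Itgax, 2.15 and 2.13 for Cd63, 7.64 and 4.82 for Lpl, and 1.39 and 0.0106 for Cd9 (3.12 unthinned). The replicate numbers do not pair the mice (correlations of deviations from -0.53 to 0.44), and with the replicate number as a block 0 members and 0 genes passed between WD tumour and RD no tumour mice.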
